A study of Mus musculus with 11 samples.

Results

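The genes adar and samhd1 encode enzymes that keep a cell's own nucleic acids, and those of retroviruses, from setting off innate immune sensors. They were taken by name from a custom NanoString nCounter panel and are 2 of its 93 genes. ADAR1, the product of adar, converts adenosine to inosine in double-stranded RNA, and its interferon-inducible form keeps the cell's own RNA from activating the RNA sensor MDA5. SAMHD1 breaks down the deoxynucleotides needed for reverse transcription and DNA synthesis. Loss of either enzyme causes Aicardi-Goutières syndrome, an inherited type I interferon disease, and both genes are also induced by interferon.

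The RNA came from spleens of 11 mice, all female, in 5 groups. The lupus-prone mice were 3 labelled WT/Mrl and 4 labelled cGAS/Mrl. The study describes its lupus-prone mice as MRL/MpJ animals that carry the Fas lpr mutation, with cGAS, the cytosolic DNA sensor upstream of STING, deleted by CRISPR/Cas9 and with WT littermates as controls. The labels write neither Fas lpr nor KO for these mice. The non-autoimmune B6 mice were 1 labelled WT/B6, 1 labelled cGAS KO /B6 and 2 WT/B6 mice labelled DMXAA injected. DMXAA is a small molecule that activates mouse STING and so induces type I interferon. Its dose, the time after injection and the ages of the mice are not given in the labels. The transcript of cGAS was not analysed here, so the genotype labels could not be checked against it. Of 25 marker genes for T cells, B cells, myeloid cells, plasmacytoid dendritic cells and erythroid cells, 0 were found on the panel, so the labelled tissue could not be checked either. The study describes its gene expression analysis as made on total splenocytes. In RNA from mixed cells, fewer cells that express a gene and less RNA per cell cannot be told apart.

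The deposited signal of each mouse was a whole number of counts times 1 factor. The factor was 0.67 to 1.36 in the Mrl mice, 1.61 and 1.64 in the DMXAA-injected mice, 0.297 in the B6 cGAS KO mouse and 0.0823 in the WT/B6 mouse. What sets it beyond the authors' normalization was not tested, nor was whether few counts mean a low depth or a low panel signal. Total counts were 28406, 50223 and 58404 in the WT/Mrl mice and 41885, 57548, 43164 and 47134 in the cGAS/Mrl mice. After DMXAA injection they were 647148 and 600677, but 12386 in the B6 cGAS KO mouse and 3612 in the WT/B6 mouse. The median panel gene had 21 counts in the WT/B6 mouse, against 605 or more in the DMXAA-injected mice, so counting error was largest in the WT/B6 mouse. Levels are given below as log2 of the signal minus the log2 of the mouse's own median over the 93 genes, which removes the factor. A value of 0 is then the level of the median panel gene in that mouse.

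The level of adar relative to the panel median was 0.52, 0.75 and 0.73 in the WT/Mrl mice and 0.58, 0.42, 0.59 and 0.54 in the cGAS/Mrl mice. After DMXAA injection it was -0.20 and -0.16, with -0.22 in the B6 cGAS KO mouse and -0.93 in the WT/B6 mouse. On this scale all 7 Mrl mice thus lay above the panel median and all 4 B6 mice below it, while the WT/Mrl and cGAS/Mrl mice overlapped. With another scaling, given below, the DMXAA-injected mice lay inside the Mrl range. How many other panel genes separate Mrl from B6 mice was not counted, here or below. The lone B6 values rested on 31 counts in the cGAS KO mouse and 11 counts in the WT mouse, against 152 to 344 counts in the Mrl mice and 594 and 541 after DMXAA injection. Counting error alone (exact Poisson interval, 95%) put the WT/B6 level between -1.94 and -0.094 and the B6 cGAS KO level between -0.77 and 0.29. Both intervals held the levels of the DMXAA-injected mice, so that the order among the B6 groups was not resolved for adar on this scale. Counting intervals of levels were computed on this scale only.

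The level of samhd1 relative to the panel median was 2.84, 2.80 and 2.73 in the WT/Mrl mice and 2.82, 2.78, 2.61 and 2.69 in the cGAS/Mrl mice. After DMXAA injection it was 1.89 and 2.01, with 3.01 in the B6 cGAS KO mouse and 1.34 in the WT/B6 mouse. On this scale the uninjected B6 mice thus lay on either side of every other mouse, with the cGAS KO mouse highest and the WT mouse lowest. They held 289 and 53 counts, with counting intervals of 2.83 to 3.17 for the cGAS KO mouse and 0.92 to 1.72 for the WT mouse. The first interval reached down to the highest Mrl mouse, and the second did not reach the DMXAA-injected mice. These intervals take the panel median as exact and hold no spread between mice.

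Ordered by group mean, adar ran from 0.67 ± 0.13 in WT/Mrl (SD, n = 3) through 0.53 ± 0.08 in cGAS/Mrl (SD, n = 4) to -0.18 ± 0.03 in DMXAA-injected mice (SD, n = 2), followed by the lone B6 cGAS KO and WT mice. For samhd1 the B6 cGAS KO mouse came first, followed by WT/Mrl at 2.79 ± 0.05 (SD, n = 3), cGAS/Mrl at 2.72 ± 0.09 (SD, n = 4), DMXAA-injected mice at 1.95 ± 0.08 (SD, n = 2) and the WT/B6 mouse. The order depended on the scale. When each mouse was scaled by the median of ratios over all genes, which compares it with the average mouse gene by gene, samhd1 after DMXAA injection was 9.40 and 9.44 (log2 scaled signal), inside the Mrl range of 9.38 to 9.76. The B6 cGAS KO mouse was at 9.379 on this scale, no longer highest but below the lowest Mrl mouse (9.382), and the WT/B6 mouse was at 8.23. On the same scale adar after DMXAA injection was 7.32 and 7.28, inside the Mrl range of 7.14 to 7.52, with the uninjected B6 mice lower at 6.16 and 5.96. For samhd1 the WT/B6 mouse was the lowest on both scales.

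**Figure D1:**
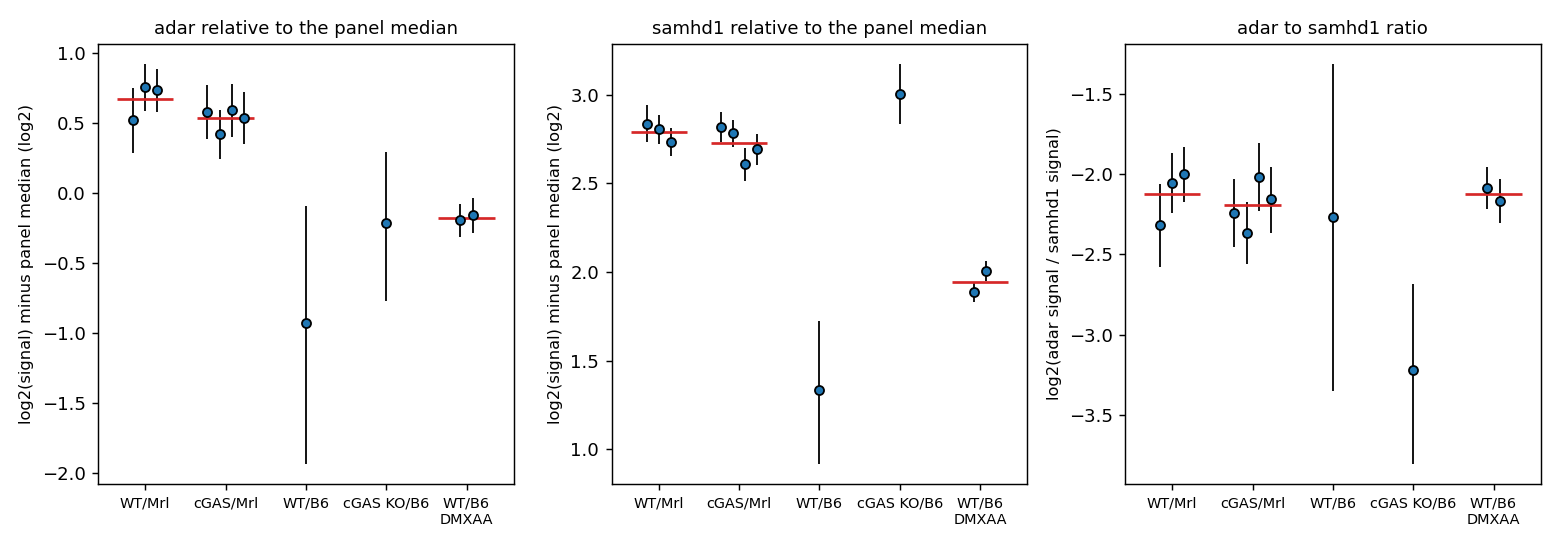
Levels of adar and samhd1 as log2 signal minus the log2 panel median, and log2 of their ratio, with 1 point per mouse in 5 groups (vertical axes in log2 units, which differ between panels). Lines through points are exact 95% counting intervals (Poisson for levels, Clopper-Pearson for the ratio) and red lines are group means; the ratio of the B6 cGAS KO mouse, at -3.22, sits below the other 10 mice, which lie between -2.36 and -2.001.

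The comparison of cGAS/Mrl with WT/Mrl asks whether the DNA sensor alters expression in lupus-prone mice. Neither gene passed the test: adar differed by -0.14 (log2, SE 0.12, 95% interval -0.41 to 0.14, limma adjusted p = 0.997) and samhd1 by -0.067 (SE 0.11, interval -0.33 to 0.20, limma adjusted p = 0.997). The intervals leave room for a fall of adar by up to 0.41 and of samhd1 by up to 0.33. Of all 93 genes, limma called 0 (0%) at an adjusted p under 0.05, voom on the recovered counts also called 0, and 1 gene passed an unadjusted p under 0.05. That gene was viperin, an antiviral enzyme, at -0.35. With 1 mouse left out adar ran from -0.21 to -0.095 and samhd1 from -0.098 to -0.027. By the median of ratios samhd1 differed by -0.027, and on genes outside the interferon and cytokine lists by -0.036. On the deposited scale, without centring and with 1 added to the signal here and below unless stated, it differed by 0.012. It was called on none of these scales. On the deposited scale adar differed by -0.059, not called.

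Mrl mice against uninjected B6 mice compares a lupus-prone with a non-autoimmune background, in which strain, Fas allele and disease cannot be told apart. Here adar was higher in Mrl mice by 1.17 (log2), a fold of 2.26, and all 7 Mrl mice lay above both B6 mice. The SD of adar was 0.51 between the 2 B6 mice, which differ in genotype, and 0.12 among the Mrl mice. On the deposited scale, which keeps the factors, the differences were 5.84 for adar and 5.70 for samhd1, or 6.45 and 5.86 without the added 1. On the panel-median scale the adar difference ranked 9 among the 93 genes. For samhd1 the difference was 0.59, but the Mrl mice lay between the B6 mice. The SD of samhd1 was 1.18 between the B6 mice and 0.08 among the Mrl mice. Across the panel 26 genes were under limma's threshold as higher (28%) and 37 as lower (39.8%) on the panel-median scale, but 31 and 32 by the median of ratios and 93 and 0 on the deposited scale. Without the WT/B6 mouse the samhd1 difference turned to -0.25 while that of adar was 0.82, and without the B6 cGAS KO mouse they were 1.42 and 1.53. The fit assumes that each lone B6 mouse varies like the replicated groups, and it does not include the counting error of its few counts. No p is therefore given, and the values describe these B6 mice.

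DMXAA-injected against uninjected WT/B6 mice compares mice given a STING agonist with a single untreated mouse. Relative to the panel median, adar was higher after injection by 0.75 (log2) and samhd1 by 0.61, folds of 1.69 and 1.53. With 1 WT/B6 mouse the spread of that group is not known, so no p is given, and these values describe that mouse. Its counting interval for adar (11 counts) held both DMXAA levels, so the adar difference was not resolved on this scale. If the WT/B6 mouse is assumed to vary like the other groups, 35 genes were under limma's threshold as higher (37.6%) and 46 as lower (49.5%), and the median gene differed by -0.89. Relative to that median gene, adar was 1.64 and samhd1 1.498 higher, and they ranked 34 and 35 of 93. Scaling by the median of ratios moved every gene by 0.58, to 1.34 for adar and 1.19 for samhd1, with 41 genes higher and 39 lower. Centring on genes outside the interferon and cytokine lists gave 1.71 and 1.56, with 44 higher and 33 lower. On the deposited scale with 1 added to the signal the differences were 8.92 and 9.55, and all 93 genes were higher. Without the added 1 they were 9.99 and 9.85. With 1 added to the signal before centring on the panel median, adar differed by 0.34 and samhd1 by 0.97. With the B6 cGAS KO mouse as the only control, an alternative chosen after the data were seen, adar differed by 0.036 and samhd1 by -1.06, so the difference rested on which B6 mouse stood for the uninjected state.

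DMXAA-injected against Mrl mice sets mice given a STING agonist beside lupus-prone mice, both with replicates, though strain and injection cannot be told apart. On the panel-median scale both genes were lower in DMXAA-injected mice, adar by -0.78 (log2, SE 0.11, limma adjusted p = 0.000108) and samhd1 by -0.81 (SE 0.11, limma adjusted p = 6.29e-05), but the differences were 1.87 and 1.84 on the deposited scale, called as higher, and 0.12 and 0.083, not called, when centred on genes outside the interferon and cytokine lists. Scaled by the median of ratios the differences were -0.084 and -0.12, not called. The panel itself moved: the median gene differed by -0.81, with 31 genes called higher (33.3%) and 51 lower (54.8%). The 2 genes ranked 45 and 47 of 93, and samhd1 was itself the median gene. The other scalings moved the median gene by 0.70 (median of ratios), 0.90 (genes outside the lists) and 2.65 (deposited signal), and the split of calls to 39 higher and 42 lower, 40 and 41, and 54 and 5. A factor per mouse leaves these ranks as they are, though adding 1 to the signal, as on the deposited scale here, can change them. By rank both genes were near the middle of the panel.

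**Figure D2:**
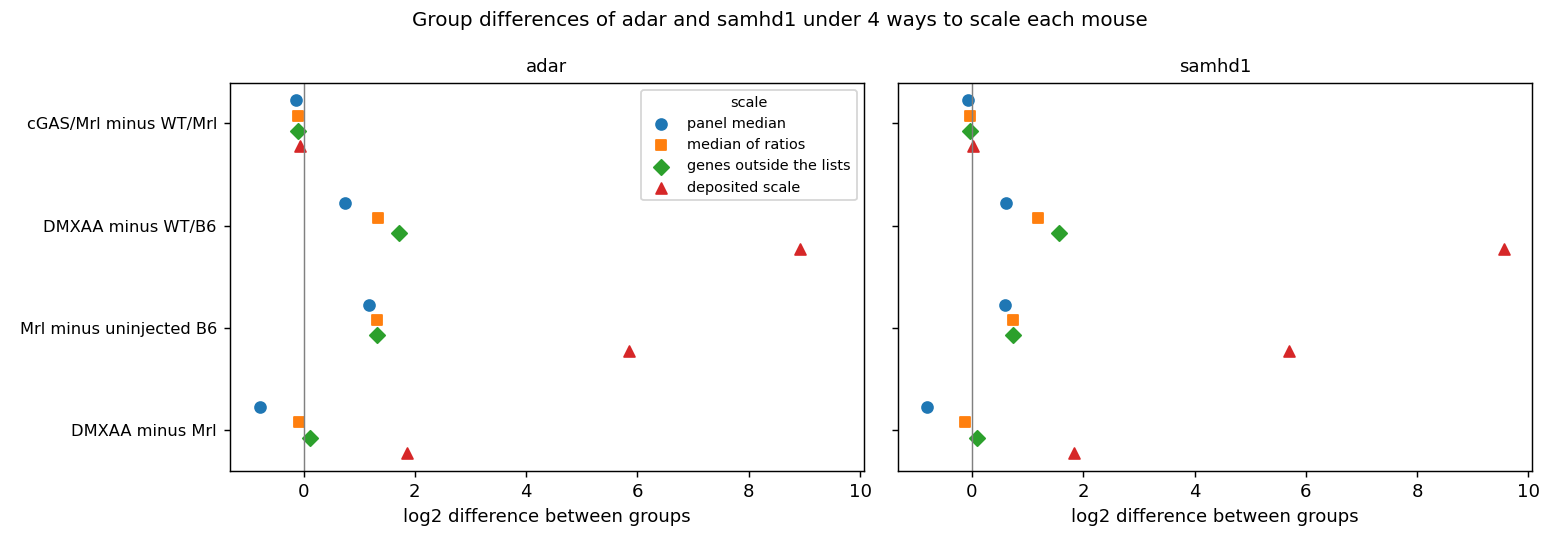
Log2 differences of adar and samhd1 between groups (horizontal axis, log2) in 4 comparisons, with each mouse scaled by its panel median, by the median of ratios, by the median of genes outside the interferon and cytokine lists, or left on the deposited scale with 1 added. Both genes are above 0 in Mrl minus uninjected B6 and in DMXAA minus WT/B6 on all 4 scales, while DMXAA minus Mrl runs from -0.78 to 1.87 for adar and from -0.81 to 1.84 for samhd1, across 0.

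The difference that goes with the cGAS label was also compared between backgrounds. In B6 the cGAS KO mouse was higher than the WT mouse by 0.72 for adar and 1.67 for samhd1 (1 mouse each), a fold of 1.64 and 3.18. The Mrl difference minus the B6 difference was -0.85 for adar and -1.74 for samhd1 (log2). With 1 B6 mouse per genotype, of 11 and 31 counts of adar and 53 and 289 of samhd1, the spread among B6 mice is not known, so limma's p for this term is not read as a test and no call is made for either gene. By the median of ratios they were -0.29 and -1.17, and on genes outside the lists -0.64 and -1.52. On the deposited scale they were -2.48 and -4.00 with 1 added to the signal, or -3.40 and -4.29 without it. Across the panel 5 genes higher (5.38%) and 26 lower (28%) were under limma's threshold in this term, with the same limit, against 16 and 12 by the median of ratios, 8 and 16 on genes outside the lists and 0 and 29 on the deposited scale. A genotype and a mouse cannot be told apart in B6. The comparisons share mice: WT/B6 enters 3 of them and the Mrl mice enter 4, so they are not independent of each other.

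The ratio of adar to samhd1 within a mouse carries no scale factor. It compares mice with each other and not the abundance of the RNAs, since probes differ. As log2 it was -2.32, -2.05 and -2.001 in the WT/Mrl mice and -2.24, -2.36, -2.02 and -2.16 in the cGAS/Mrl mice. After DMXAA injection it was -2.08 and -2.17, with -2.27 in the WT/B6 mouse and -3.22 in the B6 cGAS KO mouse. In 10 of the 11 mice the ratio thus averaged -2.17 with an SD of 0.13, while their adar counts ran from 11 to 594, and the B6 cGAS KO mouse alone stood apart. That mouse was left out because of its value, and over all 11 mice the ratio averaged -2.26 with an SD of 0.34. In that mouse adar was 9.69% of the counts of both genes (31 of 320, exact Clopper-Pearson 95% interval 6.68% to 13.5%). The WT/B6 mouse had 17.2% (interval 8.90% to 28.7%), and the other 9 mice 16.3% to 19.99%. The interval of the WT/B6 mouse reached into that of the B6 cGAS KO mouse, and both cover counting error only.

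The ratio differed between cGAS/Mrl and WT/Mrl by -0.070 (log2, exact two-sided permutation p = 0.514, adjusted p = 0.771 over 3 tests, 35 divisions). It ran from -0.17 to -0.0093 with 1 mouse left out and was -0.14 with medians in place of means. Between DMXAA-injected and Mrl mice it differed by 0.038 (exact permutation p = 0.833, adjusted p = 0.833, 36 divisions), or by -0.0035 to 0.080 with 1 mouse left out, and both injected mice lay inside the Mrl range. Between Mrl and uninjected B6 mice it differed by 0.58 (exact permutation p = 0.167, adjusted p = 0.50, 36 divisions), and by 0.10 without the B6 cGAS KO mouse or 1.06 without the WT/B6 mouse, and by 0.13 with 1 added to the signal. The smallest two-sided p, as computed here, is 0.0571 for 35 divisions and 0.0556 for 36, so none could pass 0.05. With no test, the ratio was 0.14 higher in DMXAA-injected than in WT/B6 mice, and differed by -0.95 between the B6 cGAS KO and WT mice, which became -0.63 and -1.60 with 1 added to the signal.

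Other nucleic acid enzymes on the panel were trex1, a DNA exonuclease whose loss also causes Aicardi-Goutières syndrome, and oas2, which makes oligoadenylates that activate RNase L. In DMXAA-injected against Mrl mice both were called higher on all 4 scales, trex1 by 1.51 and oas2 by 1.36 (log2, panel-median scale), at ranks 21 and 25, while adar and samhd1 were at 45 and 47. In DMXAA-injected against WT/B6 mice (1 mouse) trex1 was higher by 1.86, but oas2 differed by 0.37, below adar and samhd1. By the median of ratios oas2 differed by 0.95 and on genes outside the lists by 1.32, again below both. On the deposited scale with 1 added it differed by 9.09, above adar (8.92) and below samhd1 (9.55). Within a mouse, log2 of adar to trex1 was -0.65, -0.42 and -0.27 in WT/Mrl and -0.86, -0.99, -0.57 and -0.67 in cGAS/Mrl mice. After DMXAA injection it was -2.88 and -2.92, with -1.79 in the WT/B6 mouse and -1.57 in the B6 cGAS KO mouse. This ratio was lowest in DMXAA-injected mice and highest in Mrl mice, with the uninjected B6 mice between. The ratio of samhd1 to trex1 was -0.79 and -0.75 after DMXAA injection against 1.38 to 1.73 in Mrl mice, with 0.48 in the WT/B6 mouse and 1.65, inside the Mrl range, in the B6 cGAS KO mouse. Against oas2 the order was another: log2 of adar to oas2 was 0.81 to 1.54 in Mrl mice, -0.44 in the B6 cGAS KO mouse, -1.22 and -0.71 after DMXAA injection and lowest, at -1.35, in the WT/B6 mouse. The ratio of samhd1 to oas2 was 2.82 to 3.90 in Mrl mice, 2.78 in the B6 cGAS KO mouse, 0.92 in the WT/B6 mouse and 0.86 and 1.46 after DMXAA injection. For adar to oas2 all 7 Mrl mice lay above all 4 B6 mice, while for samhd1 to oas2 the B6 cGAS KO mouse, with 42 counts of oas2, lay next to the lowest Mrl mouse. These ratios also carry the differences of trex1 and oas2 themselves. How many other panel genes separate Mrl from B6 mice in a ratio to trex1 or oas2 was not counted. No counting intervals were computed for the ratios to trex1 and oas2, and the order of the uninjected B6 mice in them rests on few counts. Between Mrl and uninjected B6 mice trex1 differed by 0.10, and oas2 was lower by -0.89 except on the deposited scale, where every panel gene was higher.

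The interferon-stimulated list held 17 other panel genes. Of these, in DMXAA-injected against WT/B6 mice, 11 were under limma's threshold as higher and 1 as lower, which rests on the lone WT/B6 mouse as above, with a median of 1.86 against -0.89 for the whole panel, of which 37.6% was higher and 49.5% lower by that threshold. The counts were 14 higher and 1 lower by the median of ratios, 16 and 0 on genes outside the lists and 17 and 0 on the deposited scale. The 3 with the highest mean count were viperin, the chemokine cxcl10 and Ifit1, an antiviral RNA-binding protein, at 5.67, 7.30 and 7.40. The DMXAA-injected mice set that mean, with 58669 and 55296 counts of Ifit1 against 11 to 73 in the other mice, so the choice itself favours a high value after injection and these 3 differences are descriptions only. The differences of adar and samhd1 lay below those of 11 of the 17. In Mrl against uninjected B6 mice 9 were under limma's threshold as higher, 3 as lower and 5 not under it (17 higher on the deposited scale). These counts rest on lone B6 mice as above. The median was 0.42 against -0.085 for the panel, of which 28% was higher and 39.8% lower by that threshold. In this comparison adar lay below only 4 of the 17 and samhd1 below 8. Here cxcl10 differed by 1.19 with the B6 cGAS KO mouse inside the Mrl range, and Ifit1 was lower by -0.83, except on the deposited scale at 3.79. The viperin difference of 0.096 averaged 2 unlike B6 mice. The WT/B6 mouse, at 2.44, lay below the Mrl range of 3.10 to 3.73 and the B6 cGAS KO mouse, at 4.19, above it. In DMXAA-injected against Mrl mice 10 were called higher, 6 lower and 1 not called, against 33.3% higher and 54.8% lower over the panel, and 13 were higher and 0 lower on the deposited scale. In cGAS/Mrl against WT/Mrl, 0 of the 17 were called, with a median of 0.040.

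The panel held 13 nucleic acid sensors and partners. In DMXAA-injected against Mrl mice 5 were called higher, 6 lower and 2 not called, shares near those of the whole panel (33.3% higher and 54.8% lower), but 9 higher and 0 lower on the deposited scale. Those higher on all 4 scales were Ifi204 by 3.50 and Ifi205 by 1.30, of the family of interferon-inducible DNA-binding proteins, the RNA sensors lgp2 by 1.94 and mda5 by 1.67, and tlr3, an endosomal receptor for double-stranded RNA, by 0.74. Among those lower on the panel-median scale, tlr9, the endosomal DNA receptor, differed by -3.05 and mnda by -2.96, and both kept that sign on all 4 scales, while unc93b, which carries endosomal receptors to their compartment, differed by -2.29 and aim2, which forms an inflammasome on DNA, by -1.58, and both turned positive on the deposited scale. The RNA receptor tlr7 differed by -0.80 and the Z-form nucleic acid sensor zbp1 by -0.56, and both turned positive on 2 or more of the other scales. The 2 not called were mndal at -0.36 and tlr8 at -0.24, both positive on the other scales. There tlr8 was called higher by the median of ratios (0.46), on genes outside the lists (0.66) and on the deposited scale (2.41). For mndal this held on genes outside the lists (0.53) and on the deposited scale (2.29), but not by the median of ratios (0.33).

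In Mrl against uninjected B6 mice 3 sensors were under limma's threshold as higher, 5 as lower and 5 not under it, against 28% higher and 39.8% lower over the panel, and 13 were higher on the deposited scale. These counts rest on lone B6 mice and are not read as a test. Those higher were Ifi204 by 0.98, aim2 by 0.65 and zbp1 by 0.42, and each rested on 1 of the B6 mice. Ifi204 had 5 counts in the B6 cGAS KO mouse, and in the WT/B6 mouse its level of -0.93 lay inside the Mrl range of -1.18 to -0.76. The B6 cGAS KO mouse lay above every Mrl mouse for aim2, at 2.64, and inside the Mrl range for zbp1, at 1.93. Those lower were mnda by -1.43, tlr3 by -0.88, mndal by -0.84, unc93b by -0.71 and tlr8 by -0.46, all of which turned positive on the deposited scale. By the median of ratios (-0.31) and on genes outside the lists (-0.30), tlr8 was not under limma's threshold. For mnda and tlr3 all 7 Mrl mice lay below both B6 mice, whereas for mndal and unc93b the WT/B6 mouse and for tlr8 the B6 cGAS KO mouse lay inside the Mrl range. In DMXAA-injected against WT/B6 mice, again with 1 WT/B6 mouse, the 13 sensors differed by -4.40 to 3.52 on the panel-median scale. Their median was -0.014, against -0.89 for the panel. Every gene moved up by 0.58 by the median of ratios and by 0.95 on genes outside the lists, and all 13 were higher on the deposited scale. The gene of MDA5, the sensor that ADAR1 keeps from the cell's own RNA, was higher in this comparison by 1.57 on the panel-median scale. In cGAS/Mrl against WT/Mrl, 0 of the 13 were called.

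Likeness to other panel genes was measured as the root mean square, over the 11 mice, of the difference between centred levels after each gene's own mean was removed. The genes most like adar were tgfb1 (0.27 log2), zbp1 (0.30) and samhd1 (0.32), against a median of 1.08 over 92 genes. Those most like samhd1 were zbp1 (0.28), adar (0.32) and aim2 (0.35), against a median of 1.02. Without the uninjected B6 mice, a choice made after the data were seen, samhd1 was the closest gene to adar (0.12, over 9 mice) and adar ranked 2 for samhd1. These values are descriptions and were not tested.

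The promoters of both genes were read from RefSeq (GRCm38.p6, windows of 250 bases before to 50 after a start), where Adar had 3 windows and Samhd1 had 1. None of the 3 Adar windows covers the first base of the Adar gene record, so the sequence around that base was not searched. The interferon response motif searched, on both strands, was GAAA and GAAA with any 2 bases between, found in 3.99% of 27025 genes and in 9 of the 52 panel genes matched by symbol (17.3%), but in no window of Adar or Samhd1. A form with 1 base fewer at its end, added after the sequences were seen, was in 9.76% of genes, in 13 of the 52 panel genes (25%) and in 1 window of Adar. It had 2 matches there, of which the first (GAAAAGGAA, at position -249 from the start that defines the window) is not in the stretch shown. The gamma-activated motif, TTC and GAA with any 3 bases between, was in 9.55% of genes, in 13 of the 52 panel genes (25%), in 1 window of Adar and in that of Samhd1. The stretches that hold the gamma-activated motif are shown with the motifs in capitals, for Adar at chr3:89730738-89730767 on the plus strand (gamma-activated motif first, then the second match of the shorter response motif) and for Samhd1 at chr2:157135312-157135341 on the minus strand.
Adar: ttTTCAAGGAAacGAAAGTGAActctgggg
Samhd1: acaccaccctTTCGGAGAAacacaagggcg
A match is a description of the letters and not of a bound site, and the absence of a match says only that these letters are not in the window.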

How the data were processed

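Spleen RNA of 11 mice, 50 ng each, was hybridized to custom NanoString nCounter probes. The deposited values are a linear signal that the authors normalized to housekeeping genes, which are not named in the sources used here; background subtraction is not given either. All 93 values of each mouse were whole multiples of 1 factor within a tolerance of 0.001 counts (largest deviation 3.25e-05), and 0 of the 1023 values were at 0. Groups came from the sample titles. Levels were log2 of the deposited signal with a pseudocount of 0, minus each mouse's panel median.

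Two-sided tests of differences used the lmFit and eBayes functions of limma 3.58.1 under R 4.3.3. Their p-values were adjusted over all 93 genes (Benjamini-Hochberg), and genes under 0.05 were called. In comparisons that rest on lone uninjected B6 mice, genes are only said to be under limma's threshold. cGAS/Mrl against WT/Mrl used its 7 mice, and the other comparisons all 11 mice in 5 groups. Ratios were tested by exact permutation of group means (SciPy 1.17.1, Python 3.11.15). The limma code was tested on simulated data. Figures used Matplotlib 3.10.9.

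The members and gene lists were chosen with earlier results of these data known. Named are adar, samhd1, every panel gene of the nucleic acid enzyme and sensor lists, the 3 interferon-stimulated genes with the highest mean count, and the 3 genes most like each member. Viperin in cGAS/Mrl against WT/Mrl is also the gene with an unadjusted p under the threshold. Replicates are separate mice per the labels, and the counts of every pair in a group differed by more than sampling noise (chi-square 2.91 to 27.1 times its degrees of freedom). Alternatives were other centrings, pseudocounts, filters, variance models, control mice and each mouse left out. Those added after the data were seen were voom on the recovered counts with median-of-ratios scaling, the B6 cGAS KO mouse as control, likeness without uninjected B6 mice and the shorter motif. The mean ratio without the B6 cGAS KO mouse also left that mouse out for its value.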

Additional observations from a re-analysis of the deposited data

Results flagged for a closer look

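The term that sets the cGAS-labelled minus WT difference in Mrl mice against that in B6 mice is listed because limma's value for it passed the threshold on the panel-median scale, at -0.85 for adar and -1.74 for samhd1 (log2). Its B6 side is 1 mouse against 1 mouse, so limma takes the spread from the other groups and leaves out the counting error of 11 and 31 counts of adar and 53 and 289 of samhd1. That pass is therefore not read as a test: the values describe these B6 mice and do not show that the genotype difference depends on the background. The part of few counts in the values was not tested.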

How the results depend on the processing

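Of 157 values under other settings 135 kept their direction and side of the threshold (counts within 1.5 times), as did 127 of 129 with 1 mouse left out. Ratios with no test were instead tallied as kept when within an SD of the main value, taken from DMXAA-injected or Mrl mice. Counts were tallied over both directions, so DMXAA minus Mrl passed although 31 higher and 51 lower became 54 and 5 on the deposited scale. The tally also holds ratio tests that could not pass the threshold and settings that leave a difference as it is. It includes limma's side of the threshold in comparisons that rest on lone B6 mice, which is not read as a test. The cause of the changes below was not tested. On the deposited scale (1 added) samhd1 in cGAS/Mrl minus WT/Mrl was 0.012, DMXAA minus Mrl was 1.87 for adar and 1.84 for samhd1, and the adar term between backgrounds was -2.48. Centred on genes outside the interferon and cytokine lists, DMXAA minus Mrl was 0.12 and 0.083, and that adar term was -0.64. By the median of ratios these were -0.084, -0.12 and -0.29, and by voom -0.084, -0.11 and -0.26, with 12 genes under the threshold in place of 31 in that term. With 1 added to the signal, adar was 0.34 in DMXAA minus WT/B6 and -0.46 in the term between backgrounds, and the ratio differed by 0.13 between Mrl and uninjected B6, by -0.63 between DMXAA and WT/B6 and by -1.60 between the B6 cGAS KO and WT mice. With 1 recovered count added, the ratio of DMXAA minus WT/B6 was 0.046. With both uninjected B6 mice as control for DMXAA samhd1 was -0.22, and with the B6 cGAS KO mouse adar was 0.036 and samhd1 -1.06.

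With 1 mouse left out, samhd1 in Mrl minus uninjected B6 ran from -0.25 to 1.42 and the ratio from -0.0035 to 0.080 in DMXAA minus Mrl and from -0.17 to -0.0093 in cGAS/Mrl minus WT/Mrl, where samhd1 ran from -0.098 to -0.027. With the mouse number as a replicate block, cGAS/Mrl minus WT/Mrl had 0 called genes, adar at -0.14 and samhd1 at -0.056. Deviations of mice with the same number correlated across genes at -0.20, 0.25 and 0.11, not all above 0.1, so mice were not paired by number. The exact Mann-Whitney test gave p = 0.40 for both genes. The planned quasi-likelihood count test was not run. Few counts limit the WT/B6 mouse most, with 46 of 93 genes under 20 counts.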
